A study of Mus musculus with 8 samples.

Results

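The dynein light chains are the small subunits of cytoplasmic dynein, the motor that carries cargo along microtubules towards their minus ends. The set described here was the 8 genes Dynlt1a, Dynlt1b, Dynlt1c, Dynlt1f, Dynlt3, Dynll1, Dynll2 and Dynlrb1, chosen by name from the 30153 genes of a table of heart transcripts and matched through their Ensembl identifiers. The western diet group held 4 libraries of heart tissue from aged mice fed a western diet, high in fat and sugar, and the control group held 4 libraries from aged mice with no diet named. All mice were of the C57/BL6 strain and carried, in both groups, the human gene for the angiotensin II type 1 receptor in the form called haplotype II, which the series title describes as overexpressed. The labels name no promoter, sex, exact age, length of feeding or batch, and they leave unsaid whether libraries came from different animals, so errors and p-values measure only the spread between these samples. The set was proposed with the western diet comparison of Dynlt1b in view, so the values of its members in that comparison are given as a description, without a test.

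Cytoplasmic dynein is built around a pair of heavy chains that hydrolyse ATP and walk, with intermediate and light intermediate chains that bind cargo and the dynactin complex. The light chains sit on the intermediate chains and belong to 3 families, named Tctex (the Dynlt genes), LC8 (the Dynll genes) and roadblock (the Dynlrb genes). In cardiac muscle, as elsewhere, this motor moves endosomes, autophagosomes and other vesicles. LC8 proteins also bind many proteins outside the motor, among them myosin V, and Tctex proteins bind several membrane receptors.

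The Dynlt1 copies come first, because their sequence decides how far their levels can be told apart. They lie in a stretch of 349.6 kb of mouse chromosome 17 (GRCm38, GENCODE vM21), Dynlt1a from 6306340 to 6317500 on the minus strand, Dynlt1b from 6430112 to 6436296 on the plus strand, Dynlt1c from 6601671 to 6609774 on the plus strand and Dynlt1f from 6646602 to 6655900 on the minus strand. A processed pseudogene, Dynlt1-ps1, lies on chromosome 6. The coding sequences of the 4 copies, each 339 bases in 5 exons without the stop codon, differed at 1 position. Dynlt1b differed from Dynlt1c, Dynlt1f and Dynlt1-ps1 by A21C (the Dynlt1b base first) and Dynlt1a differed from Dynlt1b by C21A, with positions counted from 1 at the first base of the start codon. In Dynlt1b this base lies in exon 1, at position 6430232 of chromosome 17. The change is silent, and the 113 encoded residues did not differ between any of the copies. The opening 60 coding bases are shown for each copy from the GENCODE vM21 transcripts, with the one variable position in capitals, since it is the only coding base that separates Dynlt1b from the others.
Dynlt1a: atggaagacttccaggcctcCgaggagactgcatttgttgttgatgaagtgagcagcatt
Dynlt1b: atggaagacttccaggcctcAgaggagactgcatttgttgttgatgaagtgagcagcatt
Dynlt1c: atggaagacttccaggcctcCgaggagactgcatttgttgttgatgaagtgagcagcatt
Dynlt1f: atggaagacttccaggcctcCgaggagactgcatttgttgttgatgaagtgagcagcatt
Dynlt1-ps1: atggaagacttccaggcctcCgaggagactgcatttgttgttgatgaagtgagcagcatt

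The LC8 pair is far less alike at the level of bases, although its proteins are nearly the same. Dynll1 (chromosome 5, 115297110 to 115300999) and Dynll2 (chromosome 11, 87979525 to 87987533) differed at 50 of 267 coding bases and at 6 of 89 residues. Their opening 60 coding bases are shown to contrast with the Dynlt1 copies, with the 9 differing positions in capitals.
Dynll1: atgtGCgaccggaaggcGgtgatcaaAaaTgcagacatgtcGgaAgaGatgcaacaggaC
Dynll2: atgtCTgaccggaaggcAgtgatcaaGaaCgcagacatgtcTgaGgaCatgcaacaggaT

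The submitters' processing notes name kallisto, which assigns reads by short words shared with annotated transcripts, so the words of 31 bases that belong to a single gene were counted. Of the 741 words of the Dynlt1b transcript, 97 (13.1%) occurred in no other annotated gene. The share was 21.4% for Dynlt1a, 7.60% for Dynlt1c and 7.31% for Dynlt1f, and 0 of the 312 words of Dynlt1-ps1 were its own. Across their whole length of 771 bases, the coding transcripts of Dynlt1b and Dynlt1f differed at 7 bases, of which 4 lay before the coding sequence, 1 within it and 2 after it. For Dynlt3, Dynll2 and Dynlrb1 all words were their own, and for Dynll1 92.8% were. Little of the annotated sequence therefore tells the single Dynlt1 copies apart, and their sum is given as well. The word length was chosen here, and for the setting and annotation release of the authors the sources used here give nothing.

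**Figure D1:**
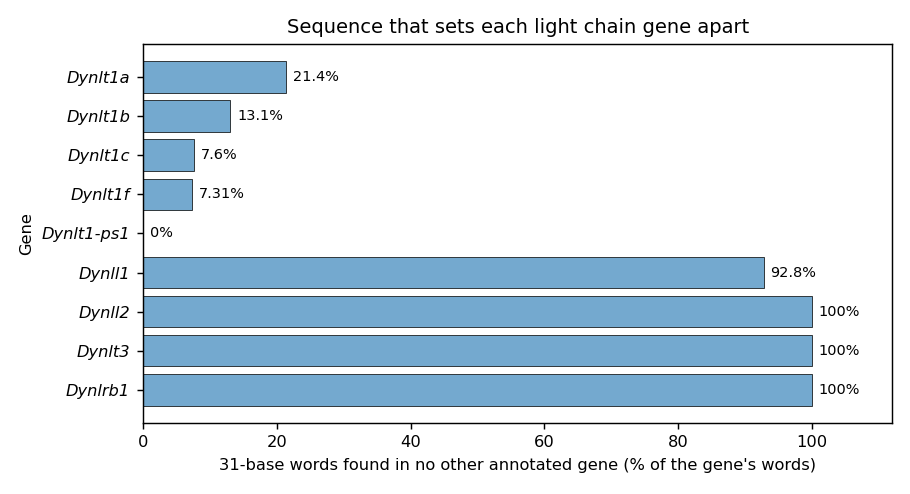
Share of the 31-base words of each gene that occur in no other annotated gene (horizontal axis, percent; bars, 1 value per gene). The Dynlt1 copies reach 7.31% to 21.4% and the pseudogene Dynlt1-ps1 0%, whereas the other light chains reach 92.8% to 100%.

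Abundance was deposited as TPM, transcripts per 1000000 transcripts, which corrects for transcript length and so allows levels to be compared between genes. Read depth cannot be recovered from TPM and is unknown here. Between 10620 and 11175 genes reached 1 TPM in each library. Fold changes are on the scale log2(TPM + 1), where the change of a low gene comes out too small. The hearts expressed cardiomyocyte genes throughout, with Tnnt2, cardiac troponin T, at 5968 to 8106 TPM in western diet libraries and 7954 to 8164 TPM in control libraries. Transcripts of the Y chromosome were present in 1 of the 4 western diet libraries, replicate 4, and in all 4 controls (Eif2s3y at 22.3 TPM there, against 21.1 to 29.04 TPM in the controls and no more than 0.0231 TPM elsewhere). Atrial transcripts were high in 3 libraries (Myl7 at 335 TPM in western diet replicate 2, and at 184 and 1403 TPM in control replicates 1 and 3, against 1.10 to 2.87 TPM in the other 5).

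Dynll2 was the most abundant light chain of these hearts, followed by Dynlrb1 and Dynll1. Dynll2 had 258, 258, 227 and 229 TPM in the western diet libraries, against 248, 238, 240 and 245 TPM in the control libraries. The groups overlapped, the western diet libraries spread more widely, and the means were 243 ± 17.5 TPM with western diet and 243 ± 4.67 TPM in control (SD, n = 4 each; log2 fold change 0.00, SE 0.08). Dynlrb1 (chromosome 2, 155236533 to 155250277), the roadblock light chain, had 106, 108, 91.1 and 95.1 TPM with western diet, against 104, 101, 103 and 103 TPM in control. Here too western diet replicates 1 and 2 were the highest and replicates 3 and 4 the lowest of the 8 libraries, as for Dynll2, and the log2 fold change was -0.04 (SE 0.08).

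Dynll1, the less abundant LC8 gene, had 47.6, 43.4, 35.1 and 32.6 TPM with western diet, against 22.7, 32.2, 35.0 and 33.5 TPM in control. Western diet replicates 1 and 2 were above every control, and replicate 3, at 35.1 TPM, was barely above the highest control, at 35.0 TPM. Western diet replicate 4 lay within the control range, and control replicate 1 was the lowest library. The means were 39.7 ± 6.99 TPM with western diet and 30.8 ± 5.56 TPM in control (SD, n = 4 each; log2 fold change 0.36, SE 0.15). Dynll2 transcripts outnumbered Dynll1 transcripts in every library, by 5.42 to 7.004 times with western diet and by 6.86 to 10.96 times in control. Dynlt3 (X chromosome, 9654267 to 9663003), whose protein shares 56 of 116 aligned residues with that of Dynlt1b, had 19.98, 20.4, 21.1 and 17.3 TPM with western diet, against 16.5, 18.1, 20.9 and 21.4 TPM in control. The groups overlapped over nearly their whole range (log2 fold change 0.04, SE 0.11).

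Dynlt1b had the highest log2 fold change of the light chains. It had 39.5, 37.7, 37.1 and 24.3 TPM with western diet, against 15.8, 16.8, 16.1 and 14.1 TPM in control. All 4 western diet libraries lay above all 4 controls, western diet replicate 4 was far below the other western diet libraries, and the controls were close together. The means were 34.7 ± 6.98 TPM with western diet and 15.7 ± 1.15 TPM in control (SD, n = 4 each), a ratio of 2.21 (log2 fold change 1.08, SE 0.14). Western diet replicate 4 is the western diet library with Y-linked transcripts. Among the 5 libraries with such transcripts the log2 fold change was 0.61 (SE 0.14, 1 western diet library against 4 controls). Without western diet replicate 4 it was 1.23 (SE 0.09). All controls and no western diet library then had Y-linked transcripts, so diet and this difference between the libraries cannot be told apart there. The part of this difference in the result was not tested.

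**Figure D2:**
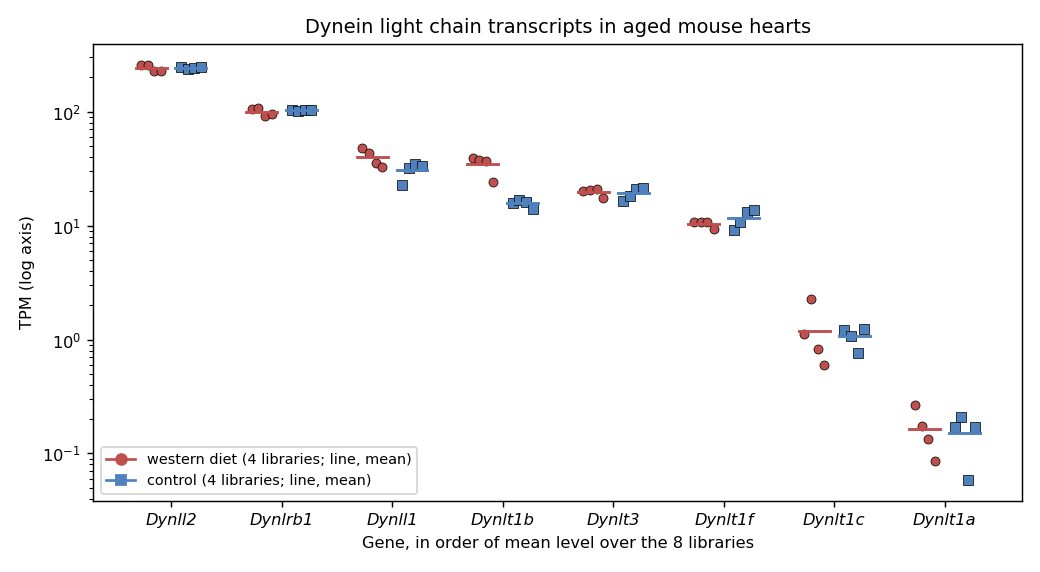
TPM of each dynein light chain on a log axis, with 1 point per library and a line at the group mean, for the 4 western diet libraries (circles, left) and the 4 control libraries (squares, right). Dynlt1b is the gene whose groups do not overlap, with 24.3 to 39.5 TPM in western diet libraries and 14.1 to 16.8 TPM in control libraries.

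Of the 8 light chains 7 reached 1 TPM in at least 4 libraries and entered the linear model fitted to 10969 genes. As a description, the choice of the set having fixed it, 1 of the 7 (Dynlt1b) was among the genes called at an adjusted p of 0.05 (limma with Benjamini-Hochberg adjustment). Over all genes tested 0.301% were called in either direction, 33 genes in all, with 25 higher (0.228%) and 8 lower (0.0729%). That split was 31 higher and 18 lower after median-of-ratios scaling and 40 higher and 21 lower after quantile normalization. The groups of Dynlt1b did not overlap, as was so for 6.6% of all genes tested and, with western diet higher, for 4.85%, and those of the other 7 light chains did. Since Dynlt1b prompted the choice of the set, nothing is read from these counts. The median log2 fold change was 0.04 over the 7 light chains and 0.06 over all genes tested.

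The order of the levels was Dynll2, Dynlrb1, Dynll1, Dynlt1b, Dynlt3, Dynlt1f, Dynlt1c and Dynlt1a by the mean over the 8 libraries. The ranges of neighbours in this order did not overlap within either group, with a pair of exceptions around Dynlt1b. Dynlt1b (24.3 to 39.5 TPM) overlapped Dynll1 (32.6 to 47.6 TPM) with western diet, and it overlapped Dynlt3 in control (Dynlt1b at 14.1 to 16.8 TPM, Dynlt3 at 16.5 to 21.4 TPM). Dynlt1b stood above Dynlt3 in every western diet library, by 1.40 to 1.98 times, whereas in the control libraries it was at 0.658 to 0.957 times Dynlt3. The 8 light chains together summed to 449 ± 39.1 TPM with western diet and to 424 ± 7.56 TPM in control (SD, n = 4 each).

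The groups of the other Dynlt1 copies overlapped. Dynlt1f had 10.8, 10.9, 10.7 and 9.41 TPM with western diet, against 9.13, 10.7, 13.3 and 13.6 TPM in control, so that the highest values were those of control replicates 3 and 4 (log2 fold change -0.14, SE 0.13). Dynlt1c was near 1 TPM throughout, at 0.597 to 2.25 TPM with western diet and 0.762 to 1.23 TPM in control (log2 fold change 0.04, SE 0.20). Dynlt1a reached 1 TPM in 0 of the 8 libraries, with 0.0850 to 0.267 TPM with western diet and 0.0584 to 0.210 TPM in control, and was not tested. The pseudogene Dynlt1-ps1, which has no word of its own, was at 1.44 to 8.99 TPM with western diet and 0.740 to 8.32 TPM in control, ranges that nearly coincide.

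The sum of the 4 copies depends less than each copy on how reads were divided between them, although 291 of the words of Dynlt1b also occur in Dynlt1-ps1. It was 51.7, 51.0, 48.7 and 34.4 TPM with western diet, against 26.3, 28.8, 30.1 and 29.1 TPM in control. All western diet libraries again lay above all controls, with replicate 4 nearest to them. The mean sums were 46.5 ± 8.13 TPM with western diet and 28.6 ± 1.63 TPM in control (SD, n = 4 each), a ratio of 1.63 (log2 fold change 0.67, SE 0.14). With Dynlt1-ps1 added to the sum, an alternative chosen after the data were seen, the ratio was 1.59, with 51.5 ± 7.94 TPM with western diet against 32.4 ± 1.96 TPM in control. Without Dynlt1b the remaining copies summed to 11.8 ± 1.33 TPM with western diet and 12.9 ± 2.04 TPM in control. In the 5 libraries with Y-linked transcripts the log2 fold change of the sum of the 4 copies was 0.26 (SE 0.09).

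The make-up of the sum differed along with its size. Dynlt1b made up 76.5%, 73.96%, 76.2% and 70.7% of it with western diet, against 60.02%, 58.3%, 53.3% and 48.3% in control. Dynlt1f made up 20.8%, 21.3%, 21.9% and 27.3% with western diet, against 34.7%, 37.2%, 44.0% and 46.9% in control. For both shares the groups lay apart, and western diet replicate 4 was again the western diet library nearest to the controls. Together the shares of Dynlt1b and Dynlt1f make up nearly all of the sum, so that of Dynlt1f must fall where that of Dynlt1b rises. Its separation is no second result, and the TPM of Dynlt1f overlapped between the groups. The shares of the copies rest on the sequence by which their annotated transcripts differ, and reads shared between the copies were not examined. That sequence includes longer transcripts. Dynlt1f has 2 annotated transcripts, of 771 and 3545 bases, and 15.9% of its words occur in Dynlt1b. Seen from Dynlt1b the overlap is large, since 582 of its 741 words also occur in Dynlt1f.

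**Figure D3:**
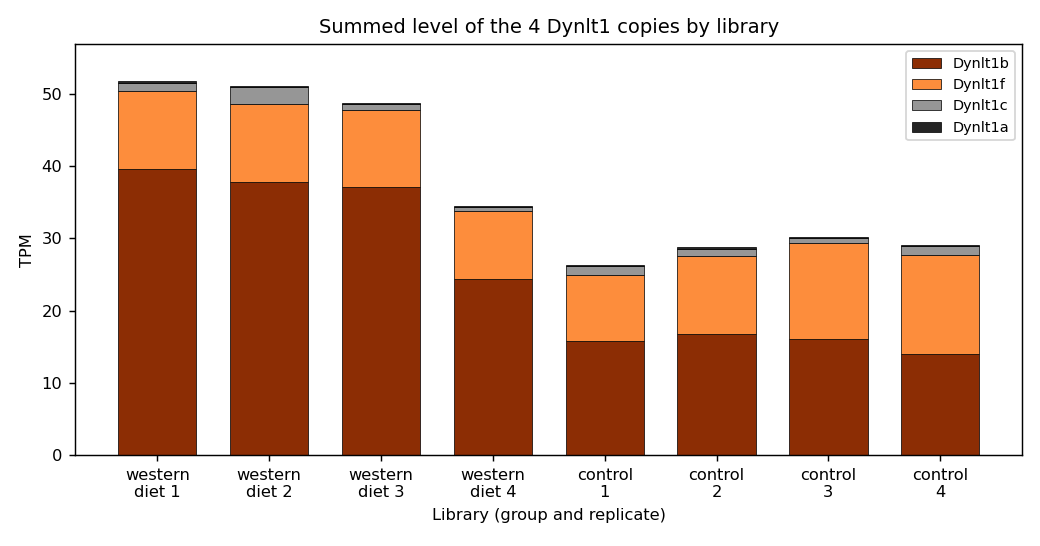
TPM of the 4 Dynlt1 copies stacked by library, western diet replicates 1 to 4 on the left and control replicates 1 to 4 on the right. The Dynlt1b segment spans 24.3 to 39.5 TPM with western diet and 14.1 to 16.8 TPM in control, while the Dynlt1f segment stays between 9.13 and 13.6 TPM in all 8.

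The genes around the Dynlt1 copies were not used in choosing them. Within 500 kb on either side, 21 other annotated genes were in the table and 11 of these were tested. None passed the threshold (limma, 0 of 11; 1 of 11 at an unadjusted p under 0.05), with a median log2 fold change of 0.08 and a range of -0.15 to 0.81. The highest was that of Tmem181b-ps, a transcribed pseudogene of the membrane protein gene Tmem181a that lies beside Dynlt1b on the opposite strand (6438524 to 6467022). Tmem181b-ps had 3.74, 5.95, 5.46 and 1.85 TPM with western diet, against 1.55, 1.55, 2.12 and 2.21 TPM in control. As for Dynlt1b, western diet replicates 1, 2 and 3 stood above all controls, but replicate 4 lay within the control range (log2 fold change 0.81, SE 0.24, limma adjusted p = 0.22). Without western diet replicate 4 the log2 fold change was 1.07 (SE 0.16, limma adjusted p = 0.0181), and in the libraries with Y-linked transcripts it was 0.01 (SE 0.19). The alternatives for Tmem181b-ps were not planned, and it passed in 1 of 18, the fit without western diet replicate 4. In that fit all controls and no western diet library had Y-linked transcripts, so diet and this difference cannot be told apart. No word of 31 bases was shared between the transcripts of Tmem181b-ps and Dynlt1b, and 40.1% of the words of Tmem181b-ps were its own. The GENCODE spans of these genes do not overlap, but the RefSeq span of Dynlt1b on the same build, 6429530 to 6440500, overlaps that of Tmem181b-ps, 6439002 to 6450994. The library kit marks strand, and whether strand was used in counting is not given in the sources used here.

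The parent gene Tmem181a, which overlaps the end of Dynlt1a, had 4.15, 5.07, 4.17 and 3.22 TPM with western diet, against 3.66, 3.26, 3.49 and 3.90 TPM in control (limma adjusted p = 0.662). Tmem181c-ps, between Dynlt1c and Dynlt1f, stayed under 1 TPM in all libraries. Farther out, Ezr, which encodes the membrane-actin linker ezrin, was at 15.4 ± 3.26 TPM with western diet and 16.8 ± 0.931 TPM in control (limma adjusted p = 0.733). Snx9, a sorting nexin of endocytosis, was at 11.7 ± 0.802 TPM with western diet and 10.7 ± 0.706 TPM in control (limma adjusted p = 0.683; SD, n = 4 each). Gtf2h5, a subunit of transcription factor TFIIH, was at 28.5 ± 3.22 TPM with western diet and 30.2 ± 1.44 TPM in control. Rsph3b, a radial spoke gene, was at 35.8 ± 4.71 TPM with western diet and 36.6 ± 1.54 TPM in control.

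**Figure D4:**
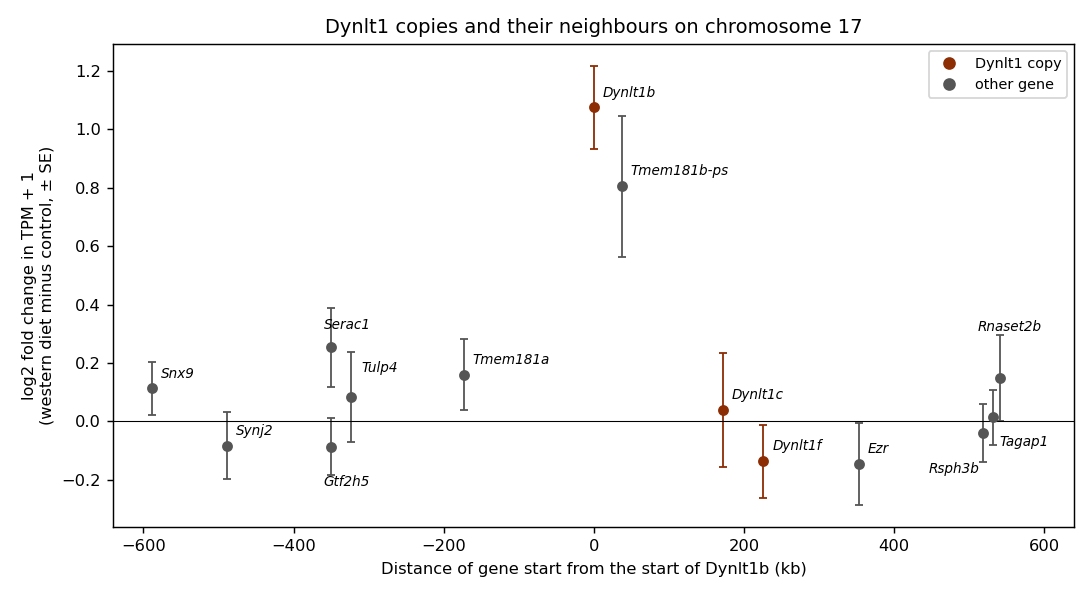
log2 fold change in TPM + 1 (western diet minus control, bars ± SE) of the tested genes within 500 kb of the Dynlt1 copies, by the distance of each gene's start from the start of Dynlt1b in kb. Dynlt1b (1.08) and the adjacent Tmem181b-ps (0.81) stand above all others, which lie between -0.15 and 0.25.

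The library pattern of Dynlt1b was compared with that of 10431 named genes by the root mean square difference of their log2(TPM + 1) values over the 8 libraries, each gene centred on its own mean. The spread of Dynlt1b itself by this measure was 0.57. The 5 closest genes, at 0.11 to 0.22, were Hsd17b11, a lipid droplet dehydrogenase, Slc25a22, a mitochondrial glutamate carrier, Alpl, alkaline phosphatase, Kdm5c, a histone demethylase on the X chromosome, and Lipe, hormone-sensitive lipase. Hsd17b11 had 30.5, 26.6, 25.3 and 19.0 TPM with western diet, against 12.2, 14.1, 13.1 and 11.9 TPM in control. Kdm5c had 13.7, 13.96, 12.3 and 6.34 TPM with western diet, against 5.50, 5.71, 6.05 and 6.56 TPM in control, so that its replicate 4 lay within the control range. In each of the 5, western diet replicate 4 was the lowest western diet library. The same measure for Dynll2, whose own spread was 0.07, gave Tars2, Mrpl17, Bcap29, Mrpl9 and Nabp2 at 0.02 to 0.03. Likeness over 8 libraries is a description and shares the group difference.

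The rest of the motor was taken from 8 lists of transport genes, of which 90 genes were tested. None of the 90 passed (limma, 0 higher and 0 lower), where 0.301% of all genes tested did. At an unadjusted p under 0.05 there were 9 of the 90, and 1284 of the 10969 genes. Of the 90, 75 had the higher mean log2 value with western diet, and their median log2 fold change was 0.10, beside 0.06 over all genes, of which 7286 were higher. The count above 0 moved with the median of all genes, to 55 of the 90 after median-of-ratios scaling and 56 after quantile normalization, where the median of all genes was -0.01. The median of the 90 was 0.04 above that of all genes in the fit as reported and after either scaling. With a term for Y-linked transcripts, which compares western diet replicate 4 alone with the controls, 35 of the 90 were higher and 55 lower. Their median was then -0.03, beside -0.07 over all genes. The counts above 0 given for each list share this dependence on the scaling and on the libraries compared. In bulk tissue, more transcript per cell and more cells of a type cannot be told apart.

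Of the core subunits of dynein, the 4 tested had log2 fold changes of 0.10 to 0.17. Dync1h1, the heavy chain, was at 37.7, 43.5, 34.1 and 31.9 TPM with western diet, against 44.1, 27.4, 29.8 and 36.8 TPM in control (limma adjusted p = 0.84). The intermediate chain Dync1i2, to which the light chains bind, was at 22.9 ± 1.42 TPM with western diet and 21.4 ± 2.88 TPM in control (SD, n = 4 each; limma adjusted p = 0.774). The light intermediate chains Dync1li1 and Dync1li2 were at 23.3 ± 3.66 against 20.5 ± 1.14 TPM and at 17.6 ± 1.45 against 16.02 ± 2.54 TPM (western diet against control, n = 4 each). The other intermediate chain gene, Dync1i1, a neuronal form, was at 0 to 0.0252 TPM with western diet and 0 to 0.0490 TPM in control. Per transcript Dynll2 thus outnumbered the heavy chain in all 8 libraries.

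All 12 subunits of dynactin, the cofactor that makes dynein processive, were tested, with 9 higher, a median log2 fold change of 0.04 and a range of -0.04 to 0.23. The median lay 0.02 below that of all genes (list minus all genes -0.02, and -0.03 after median-of-ratios scaling, where 4 of the 12 were higher). Capzb, a capping subunit shared with actin filaments, was at 123 ± 8.67 TPM with western diet and 120 ± 9.01 TPM in control (limma adjusted p = 0.921). Dctn6, a pointed-end subunit, was at 53.3 ± 7.29 TPM with western diet and 45.3 ± 4.49 TPM in control (limma adjusted p = 0.465). Of the 20 adaptors and regulators tested, 17 were higher with western diet (median log2 fold change 0.07). Among these, Rab11fip3, an adaptor of recycling endosomes, had 11.3, 12.1, 10.8 and 10.6 TPM with western diet, against 9.35, 8.33, 10.3 and 8.92 TPM in control. Its groups did not overlap, as was so for 6.6% of all genes tested, and it did not pass (limma adjusted p = 0.332). The genes of the transport lists named as lying apart were picked by smallest p, so nothing about the lists is read from them. Ccdc88a, which encodes girdin, also lay apart at 1.29 to 1.43 TPM with western diet against 0.593 to 1.13 TPM in control (limma adjusted p = 0.278).

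Light chain genes outside the set ranged from 0 to the level of Dynlt1f and above. Tctex1d2, the Tctex light chain of ciliary dynein, had 6.19, 5.67, 5.48 and 4.36 TPM with western diet, against 4.71, 4.22, 5.11 and 5.05 TPM in control (limma adjusted p = 0.666). Dynlrb2, the other roadblock gene, was listed at 0 in 7 libraries and at 0.115 TPM in western diet replicate 4. Dnal4, an axonemal light chain of the LC8 type, was at 14.2 ± 1.81 TPM with western diet and 14.7 ± 1.14 TPM in control. Of 15 axonemal dynein genes in the table, 1 was high enough to test, the assembly factor Dnaaf3, at 3.31 ± 0.717 TPM with western diet and 3.79 ± 0.468 TPM in control (limma adjusted p = 0.686).

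Kinesins, the motors that move the other way, had a median log2 fold change of 0.16 over the 12 tested, 11 of them higher in western diet hearts. Kif5b, the ubiquitous conventional kinesin, was at 27.1, 34.8, 32.1 and 29.7 TPM with western diet, against 22.7, 19.1, 30.3 and 26.1 TPM in control (limma adjusted p = 0.371). Klc2, a kinesin light chain, was at 19.0 to 26.1 TPM with western diet and 17.03 to 18.7 TPM in control, without overlap (limma adjusted p = 0.359). Of 22 microtubule genes 18 were higher, with a median of 0.13. Tubb2a, a beta tubulin, had 30.0, 31.4, 22.2 and 22.2 TPM with western diet, against 15.01, 14.8, 19.5 and 20.9 TPM in control, without overlap (log2 fold change 0.56, SE 0.15, limma adjusted p = 0.166). Its near-identical copy Tubb2b, with which it can share reads, was at 1.28 to 2.81 TPM with western diet and 0.636 to 1.35 TPM in control, a log2 fold change of 0.64 (SE 0.17; limma adjusted p = 0.165). Tubb2b passed without western diet replicate 4 (log2 fold change 0.79, limma adjusted p = 0.0459), a fit in which 90 genes passed instead of 33. In that fit all controls and no western diet library had Y-linked transcripts, so diet and this difference cannot be told apart.

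Proteins that bind the light chains were tested in 13 genes, with a median log2 fold change of 0.14 and 12 higher. Atmin, the zinc finger factor that drives Dynll1 transcription in mouse cells, had 5.31, 6.21, 5.78 and 4.70 TPM with western diet, against 4.90, 4.17, 5.34 and 4.93 TPM in control, with overlapping groups (limma adjusted p = 0.641). Bcl2l11, which encodes the apoptosis factor BIM that binds LC8, was at 1.87 to 3.71 TPM with western diet and 2.44 to 3.17 TPM in control (limma adjusted p = 0.951). Vdac1, a mitochondrial channel listed as a partner of the Tctex light chain, was at 584 ± 52.5 TPM with western diet and 543 ± 50.02 TPM in control (limma adjusted p = 0.733). Pvr, the poliovirus receptor, another partner of Tctex, was at 10.9 ± 2.07 TPM with western diet and 8.61 ± 1.28 TPM in control (SD, n = 4 each; limma adjusted p = 0.443).

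**Figure D5:**
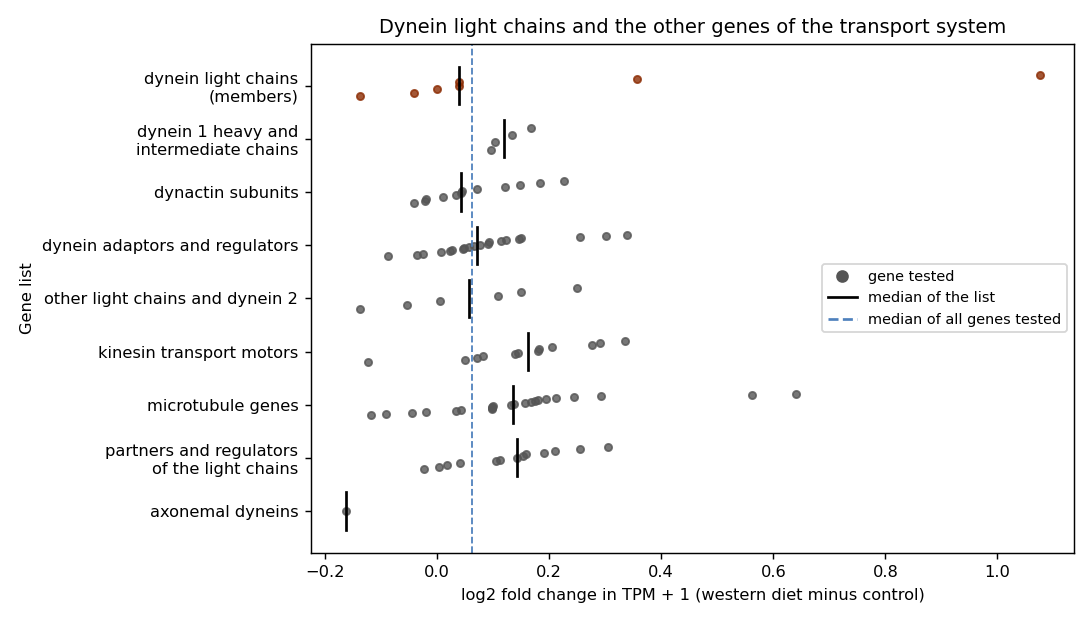
log2 fold change in TPM + 1 (western diet minus control) of the 7 tested light chains and of the tested genes of each transport list; each point is a gene, black bars are list medians and the dashed line is the median of all genes tested, 0.06. Dynlt1b, at 1.08, is the rightmost point, and the 90 listed genes lie between -0.16 and 0.64.

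The summed levels of some marker lists of other cell types lay apart between the groups. The summed level of 7 macrophage markers was 107 to 176 TPM with western diet and 85.5 to 106.03 TPM in control. The groups lay apart for 2 of the 7, C1qa and C1qb, overlapped for the other 5, and none of the 7 passed (limma, 0 of 7; 2 of 7, the same pair, at an unadjusted p under 0.05). All 7 were higher, as were 7286 of the 10969 genes tested. Over all genes tested the groups lay apart for 6.6%, and 0.301% passed, shares to set beside the marker counts given here. The sum of 4 neutrophil markers was 8.83 to 16.4 TPM with western diet and 4.08 to 7.38 TPM in control. It was mostly S100a8 and S100a9, since Csf3r and Ly6g stayed under 1 TPM in all libraries and were not tested. The groups lay apart for 1 of the 4 neutrophil markers, S100a8, which passed (limma adjusted p = 0.0319), and overlapped for the other 3. Lists whose sums overlapped also held markers that lay apart. These were 4 of 6 for smooth muscle and pericytes (Acta2 higher with western diet, Tagln, Pdgfrb and Kcnj8 lower) and 1 of 6 for endothelium (Cldn5, higher). Of these, Tagln (limma adjusted p = 0.0169) and Cldn5 (limma adjusted p = 0.00527) passed, and Acta2, Pdgfrb and Kcnj8 did not. The sum of 4 kidney markers was 9.02 to 79.0 TPM with western diet and 0 to 0.685 TPM in control, and most of it was Kap, at 72.1 TPM in western diet replicate 4. The groups lay apart for 3 of the 4, Kap, Miox and Slc34a1, all higher with western diet. Only Kap was high enough to test, and it passed (limma adjusted p = 0.0169). Among the western diet libraries Dynlt1b was lowest in replicate 4, which is also the western diet library with Y-linked transcripts, so nothing about kidney tissue is read from it. Ciliated cell markers, 5 genes, summed to 0.202 to 0.556 TPM with western diet and 0.0607 to 0.336 TPM in control. The part of these cells in the level of Dynlt1b was not tested.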

How the data were processed

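Heart RNA of 8 libraries was analysed, 4 per group, grouped by the labels; replicate numbers follow accession order and pair nothing. Per the labels' protocols, polyadenylated RNA was made into libraries with a stranded Illumina kit. The authors deposited gene-level TPM; kallisto, DESeq2 and GRCm38 appear in the submitters' processing notes, without roles or versions. Columns summed to between 941318 and 953448, and depth is unknown.

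Names and coordinates came from GENCODE vM21 by Ensembl identifier, which named 29732 of 30153 rows. The 10969 genes that reached 1 TPM in 4 or more libraries were fitted with limma 3.58.1 (R 4.3.3) as log2(TPM + 1) (group as the only term, intensity trend, two-sided, Benjamini-Hochberg adjustment); the fit was checked on simulated data. Errors of summed Dynlt1 copies are pooled standard errors over the samples. Of the listed genes, Dnai1, Dnai2 and Kash5 were not used here. Sequences are GENCODE vM21 transcripts; words of 31 bases were counted on both strands. The members, gene lists and alternatives were chosen with earlier results of these data known. The check of list directions under each scaling was added after their values were seen. Alternatives changed the pseudocount, filter, scaling, trend, weights or libraries used. The genes named are the 8 light chains, Dynlt1 pseudogenes, neighbours, the genes of closest pattern, and from each list those with the highest TPM or smallest p; Atmin, Bcl2l11, Dync1i1 and Dynlrb2 were added after their values were seen. Figures were drawn with matplotlib 3.10.9 in Python 3.11.15.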

Additional observations from a re-analysis of the deposited data

Results flagged for a closer look

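Within a group of 4 libraries, a value was looked at again where its gap to the nearest of the others was larger, relative to the range of the group, than Dixon's critical value for 4 samples; 86 groups were checked, and chance does this in about 1 of 20 groups. Western diet replicate 4 stood below the other western diet libraries for Dynlt1b, at 24.3 TPM where the others were at 37.1 to 39.5 TPM, and for Dynlt1f, at 9.41 TPM where they were at 10.7 to 10.9 TPM. The share of Dynlt1f in the Dynlt1 sum was 27.3% in that library and 20.8% to 21.9% in the others. The tubulin genes Tuba4a, at 422 TPM against 549 to 564 TPM, and Tubb4b, at 152 TPM against 195 to 197 TPM, were also low in western diet replicate 4. Control replicate 2 was the low library for Dynlrb1, at 101 TPM against 103 to 104 TPM, and for the dynein regulator Nudc, at 49.6 TPM against 53.7 to 54.5 TPM.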

How the results depend on the processing

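No paired analysis was possible because the labels carry no number shared between the groups. The count of genes past the threshold, 33, was 5 without a filter, 15 with a mean of at least 5 TPM, 61 after quantile normalization, 108 with array weights, 54 with a term for Y-linked transcripts, 81 in the libraries with such transcripts and 2 without the libraries with atrial transcripts. It ranged from 9 to 90 when each library was left out in turn (9 without control replicate 2, 12, 14 and 15 without control replicates 3, 4 and 1, 90 without western diet replicate 4). The log2 fold change of the summed Dynlt1 copies, 0.67, was 0.26 with the Y-linked term and 0.26 in the libraries with Y-linked transcripts, and 0.61 to 0.80 leaving out each library. As a description, the log2 fold change of Dynlt1b was 0.61 to 1.23 over the alternatives. Its lowest value came from the Y-linked term and the libraries with Y-linked transcripts, which give 1 estimate, since both compare western diet replicate 4 alone with the controls. It was not called there, without a filter or without the libraries with atrial transcripts. The count of transport genes past the threshold was 0 to 1 leaving out each library, and 0 in the other alternatives. The median log2 fold change over all genes, 0.06, was -0.01 after either rescaling and -0.07 with the Y-linked term. The causes were not tested. TPM keeps no depth, so no counting error can be given for the low copies Dynlt1a and Dynlt1c.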
